A study of Homo sapiens with 6 samples.

Results

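The genes described here code for the proteins that carry out and steer the splicing of pre-mRNA: the hnRNP proteins, the core proteins of the snRNP particles, the SR proteins, the subunits of splicing factor 3 and the LSM proteins. They were chosen by name alone, as every row of the gene table whose symbol begins with HNRNP, SNRP, SRSF, SF3A, SF3B or LSM followed by the letters or numbers of that family. Of 78 such rows, 5 pseudogenes, 1 antisense gene and 1 read-through gene were left out, which left 71 members among the 26364 genes of the table. There were 25 hnRNP genes, 12 snRNP core genes, 12 SR genes, 9 genes of splicing factor 3 and 13 LSM genes.

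The libraries came from MV4-11, an established line of human acute myeloid leukaemia cells that carries an internal tandem duplication of the receptor kinase gene FLT3. Cells had been exposed for 18 hours either to 22d at 10 nM, a compound known as an inhibitor of the deacetylase HDAC8, or to the vehicle DMSO, with 3 libraries per group from the same line. The series as a whole is about HDAC8 in leukaemia cells with mutant FLT3, and the comparison of 22d with DMSO asks what the compound does to the transcriptome. One cell line and a single dose and time limit what the groups can stand for, and the labels do not say whether the libraries of a group were grown as separate cultures. The p-values therefore cover the spread among these libraries alone, and that spread may be technical.

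The recovered library totals lay between 19995430 and 23749257 reads. All 12 markers listed for myeloid leukaemia cells passed the filter on low values, and 6 of them differed between groups by limma. Among all genes tested, 58.0% were called by the same test. MPO and LYZ, which code for granule proteins of myeloid cells, were lower with 22d at log2 fold changes of -2.59 and -1.46, while PTPRC, ITGAM, CSF1R and FLT3 were higher at 1.63, 0.80, 0.78 and 0.42. The summed level of the list lay between 61430 and 73240 normalized counts in the 22d libraries and between 87700 and 108400 in the DMSO libraries. LYZ alone averaged 16624 normalized counts with 22d and 44816 with DMSO, so the gap in the sum rests largely on this 1 gene. The sum therefore does not describe the markers as a set. The part of these marker changes in the results on splicing genes was not tested. Of 12 markers of other blood, epithelial or stromal cells, 4 passed the filter and 2 were at 0 in every library. The summed level of those 12 markers lay between 743 and 836 normalized counts in the 22d libraries and between 516 and 662 in the DMSO libraries, and its part in the results was not tested. On the first principal component of all genes tested, which held 80.5% of the variance, 22d replicate 1 lay at -64.3, while 22d replicates 2 and 3 lay at -39.9 and -44.2.

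Splicing is the removal of introns from a newly made transcript by the spliceosome, which is assembled afresh on each intron from small nuclear RNA-protein particles (snRNPs). In each particle a ring of Sm proteins encircles the small nuclear RNA, while in the U6 particle a related ring of LSM proteins takes that place. Splicing factor 3 belongs to the U2 particle and helps it to hold the branch site of the intron. SR proteins mostly help the machinery to recognise exons, and hnRNP proteins coat the transcript and often oppose that recognition, so that the balance between these families steers alternative splicing. Genes of this machinery are mutated in a share of myeloid leukaemias, SF3B1, SRSF2, U2AF1 and ZRSR2 being the best known of them.

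Promoter windows from RefSeq (GRCh38.p14), which run from 250 bases before a transcript's start to 50 bases after it, were found for 63 of the 71 members. The stretches below are the last 120 bases before the start for 6 of them, with a searched motif in capitals. They are shown because HNRNPM, HNRNPD, HNRNPK, SRSF10 and SNRPG had less RNA with 22d while SF3B1, the member with the largest rise, had more, and because HNRNPM, HNRNPD and SF3B1 hold the same letters, the E-box CACGTG. In HNRNPK and SRSF10 the capitals mark CTCGCGAG, the letters bound by ZBTB33, and in SNRPG they mark the ETS motif CCGGAAG, read on the opposite strand.
HNRNPM, chr19:8444855-8444974, plus strand: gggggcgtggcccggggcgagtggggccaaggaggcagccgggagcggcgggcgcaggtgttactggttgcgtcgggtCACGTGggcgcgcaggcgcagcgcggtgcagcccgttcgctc
HNRNPD, chr4:82373992-82374111, minus strand: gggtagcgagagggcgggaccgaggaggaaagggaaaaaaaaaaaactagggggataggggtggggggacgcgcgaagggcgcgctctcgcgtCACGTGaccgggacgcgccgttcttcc
SF3B1, chr2:197435029-197435148, minus strand: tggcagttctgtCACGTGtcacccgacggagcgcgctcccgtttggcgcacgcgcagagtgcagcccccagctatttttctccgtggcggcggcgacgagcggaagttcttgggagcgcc
HNRNPK, chr9:83980616-83980735, minus strand: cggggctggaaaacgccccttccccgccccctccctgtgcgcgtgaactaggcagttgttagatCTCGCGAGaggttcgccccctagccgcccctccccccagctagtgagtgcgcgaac
SRSF10, chr1:23980328-23980447, minus strand: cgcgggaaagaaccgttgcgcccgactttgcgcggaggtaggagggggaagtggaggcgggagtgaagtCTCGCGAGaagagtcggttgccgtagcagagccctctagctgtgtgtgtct
SNRPG, chr2:70293459-70293578, minus strand: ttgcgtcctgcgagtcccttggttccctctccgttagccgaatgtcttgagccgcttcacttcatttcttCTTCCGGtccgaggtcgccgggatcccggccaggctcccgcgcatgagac

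Most of these genes had less RNA in cells given 22d than in cells given DMSO. Of the 71 members, 64 passed the filter, a 6-library mean of 10 normalized counts or more, and of these 54 were lower with 22d, 2 were higher and 8 did not pass the test. The test was limma on log2 of the value plus 1, at an adjusted p under 0.05 by Benjamini-Hochberg across the 13297 genes tested. Among all genes tested, 58.0% were called, 29.6% as lower and 28.5% as higher, whereas 84.4% of the tested members were lower. The median log2 fold change of 22d over DMSO was -0.85 over the tested members and 0.01 over all genes tested. Member changes ran from -1.66 for HNRNPAB to 0.41 for SF3B1.

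The count of 23 members that were called and lower by at least 2-fold stood against 9.87% of all genes tested, and the count of 42 that were lower by at least 1.5-fold against 19.6%. In 55 of the 64 tested members every 22d library lay below every DMSO library, an order found in 33.3% of all genes tested. Members are well-expressed genes, the lowest of those tested, HNRNPA1L2, having a mean of 188 normalized counts; among the 9187 genes with at least that mean, 36.6% were called lower. In these libraries of bulk RNA, fewer cells of a kind and less RNA per cell cannot be told apart.

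**Figure D1:**
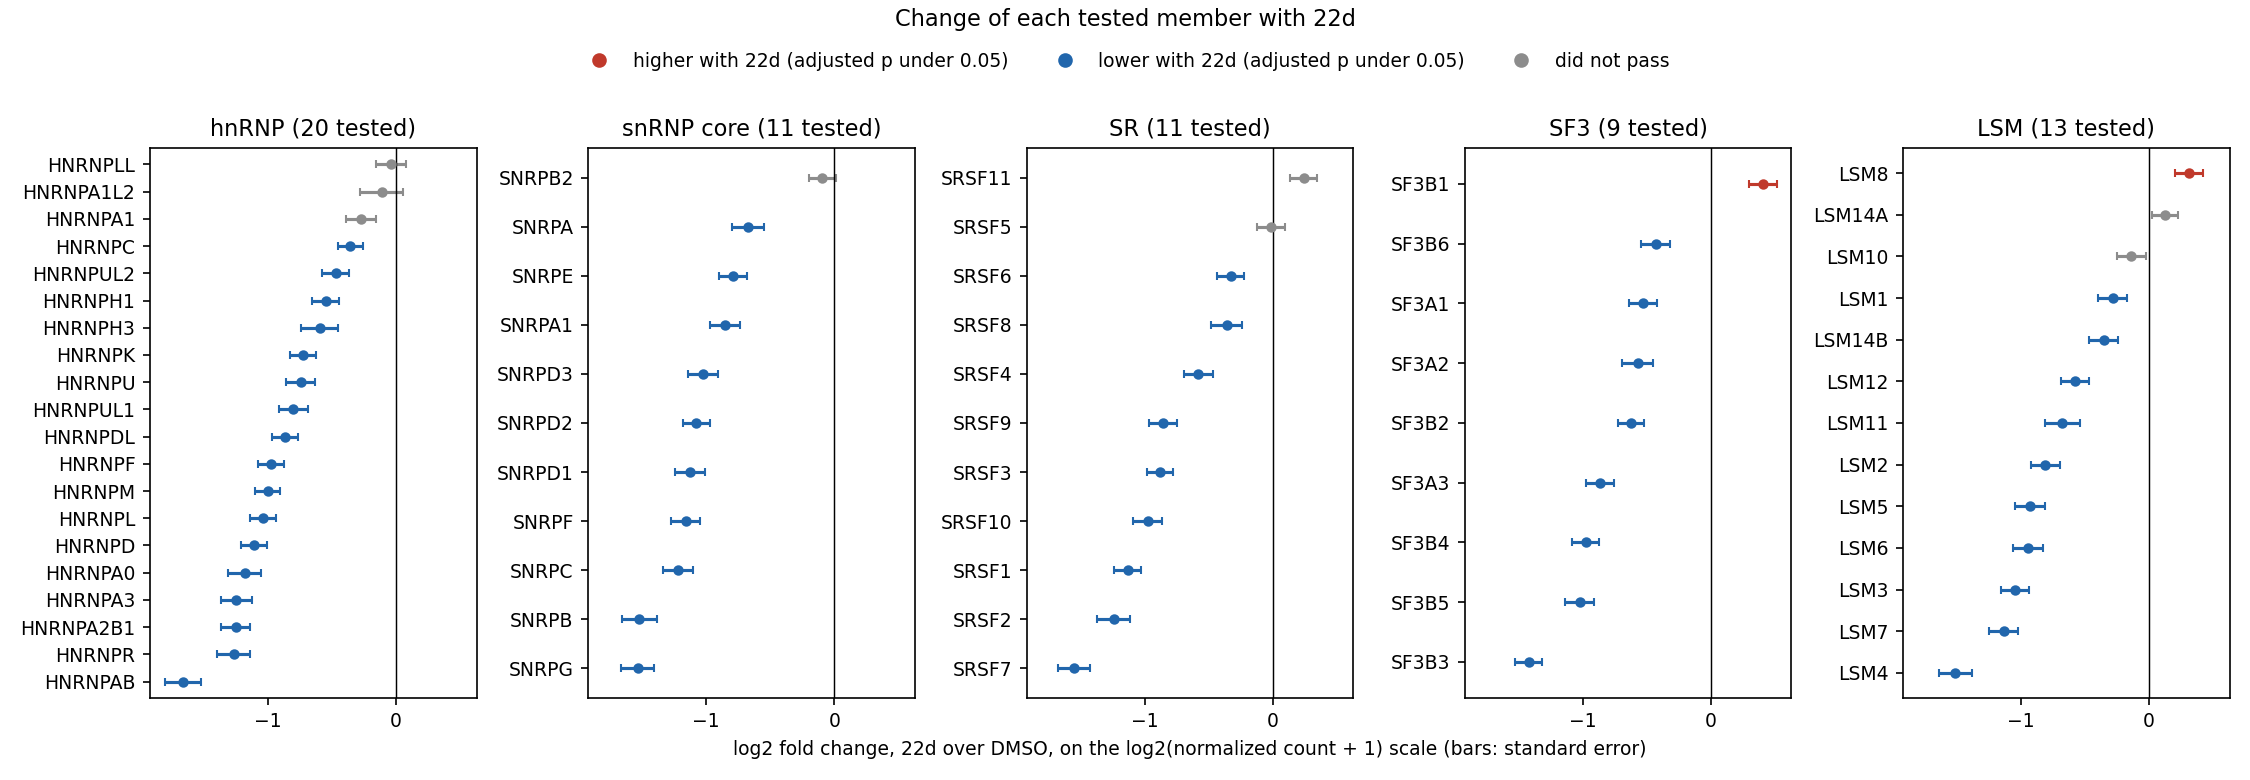
Log2 fold change of 22d over DMSO for the 64 tested members, grouped by class, with bars for the standard error. Red and blue points are members called higher and lower, and grey points did not pass the test. Most points lie left of 0 in every class, and the members called to the right of 0 are SF3B1 and LSM8.

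The genes of the snRNP core had the largest median fall among the classes, with 10 of 11 tested genes lower and none higher by limma, edgeR or DESeq2, nor at an unadjusted p under 0.05 by limma. All 7 genes of the Sm ring were lower with 22d, with a median log2 fold change of -1.13. SNRPB, which codes for the SmB protein of that ring, had 4700, 6282 and 6206 normalized counts in the 22d libraries, against 16274, 18659 and 14312 in the DMSO libraries. No 22d library came near the lowest DMSO library, and the log2 fold change was -1.52 (SE 0.13, limma adjusted p = 1.2e-06). SNRPG, the gene of SmG, had 835, 1154 and 1121 normalized counts with 22d, against 3085, 3047 and 2812 with DMSO. The groups were again wide apart, at -1.54 on the log2 scale with an SE of 0.13 (limma adjusted p = 8.4e-07).

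SNRPD1, the gene of SmD1, had 825, 1061 and 930 normalized counts with 22d, against 2171, 1949 and 2007 with DMSO. Every 22d library lay well under every DMSO library, and the log2 fold change was -1.13 (limma adjusted p = 4.8e-06). The other Sm genes fell to a similar degree, with log2 fold changes of -1.08 for SNRPD2, -1.02 for SNRPD3, -0.79 for SNRPE and -1.16 for SNRPF. Of the 4 genes of proteins that belong to the U1 or U2 particle in this class, 3 were lower. SNRPC, a protein of the U1 particle, had 850, 950 and 808 normalized counts with 22d, against 2302, 1899 and 1886 with DMSO, a log2 fold change of -1.22 (limma adjusted p = 2.7e-06). SNRPA of the U1 particle and SNRPA1 of the U2 particle had log2 fold changes of -0.67 and -0.85.

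SNRPB2, which partners SNRPA1 on the U2 small nuclear RNA, did not pass the test. It had 1227, 1336 and 1190 normalized counts with 22d, against 1370, 1317 and 1313 with DMSO, and its groups overlapped (log2 fold change -0.09, limma adjusted p = 0.46). SNRPN, the imprinted paralog of SNRPB, was listed at 0 in all 6 libraries. It shares 33.6% of its exon bases with other annotated genes, so how the authors' counting split reads there is uncertain.

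In splicing factor 3, 1 member moved against the rest. All 9 of its genes passed the test, 8 of them lower and SF3B1 higher with 22d. SF3B1, the large scaffold subunit around which the SF3b complex closes on the branch site, had 6270, 5615 and 5238 normalized counts in the 22d libraries, against 4253, 3968 and 4706 in the DMSO libraries. The groups did not overlap, although the lowest 22d library and the highest DMSO library lay close together. Its log2 fold change was 0.41 (SE 0.11, limma adjusted p = 0.0062), and among all genes tested 28.5% were called higher.

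SF3B3, the subunit that binds SF3B1 in the same complex, had 3607, 4096 and 3708 normalized counts with 22d, against 10657, 10709 and 9274 with DMSO. All 22d libraries lay far below the DMSO libraries (log2 fold change -1.42 ± 0.10 SE, limma adjusted p = 2.8e-07). SF3B1 was thus 1.74, 1.37 and 1.41 times as abundant as SF3B3 in normalized counts with 22d, but 0.399, 0.371 and 0.507 times with DMSO, with no correction for gene length. The difference of their log2 ratio was 1.83 ± 0.17 (SE), the groups did not overlap, and the exact two-sided permutation p was 0.1, the smallest that 3 against 3 libraries allow.

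SF3B4, which contacts the intron upstream of the branch site, had 1411, 1692 and 1577 normalized counts with 22d, against 3113, 3164 and 2932 with DMSO. SF3B5, a small subunit of the complex, had 2000, 2273 and 2409 with 22d, against 4742, 4757 and 4106 with DMSO. Both were apart in every library, with log2 fold changes of -0.98 for SF3B4 and -1.03 for SF3B5. SF3B6, the subunit that lies next to the branch-point adenosine, changed less, at -0.43, and was not called under library totals. SF3B2 stood at -0.62. All 3 subunits of SF3a, the other sub-complex of the factor, were lower, with log2 fold changes of -0.53 for SF3A1, -0.57 for SF3A2 and -0.86 for SF3A3.

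**Figure D2:**
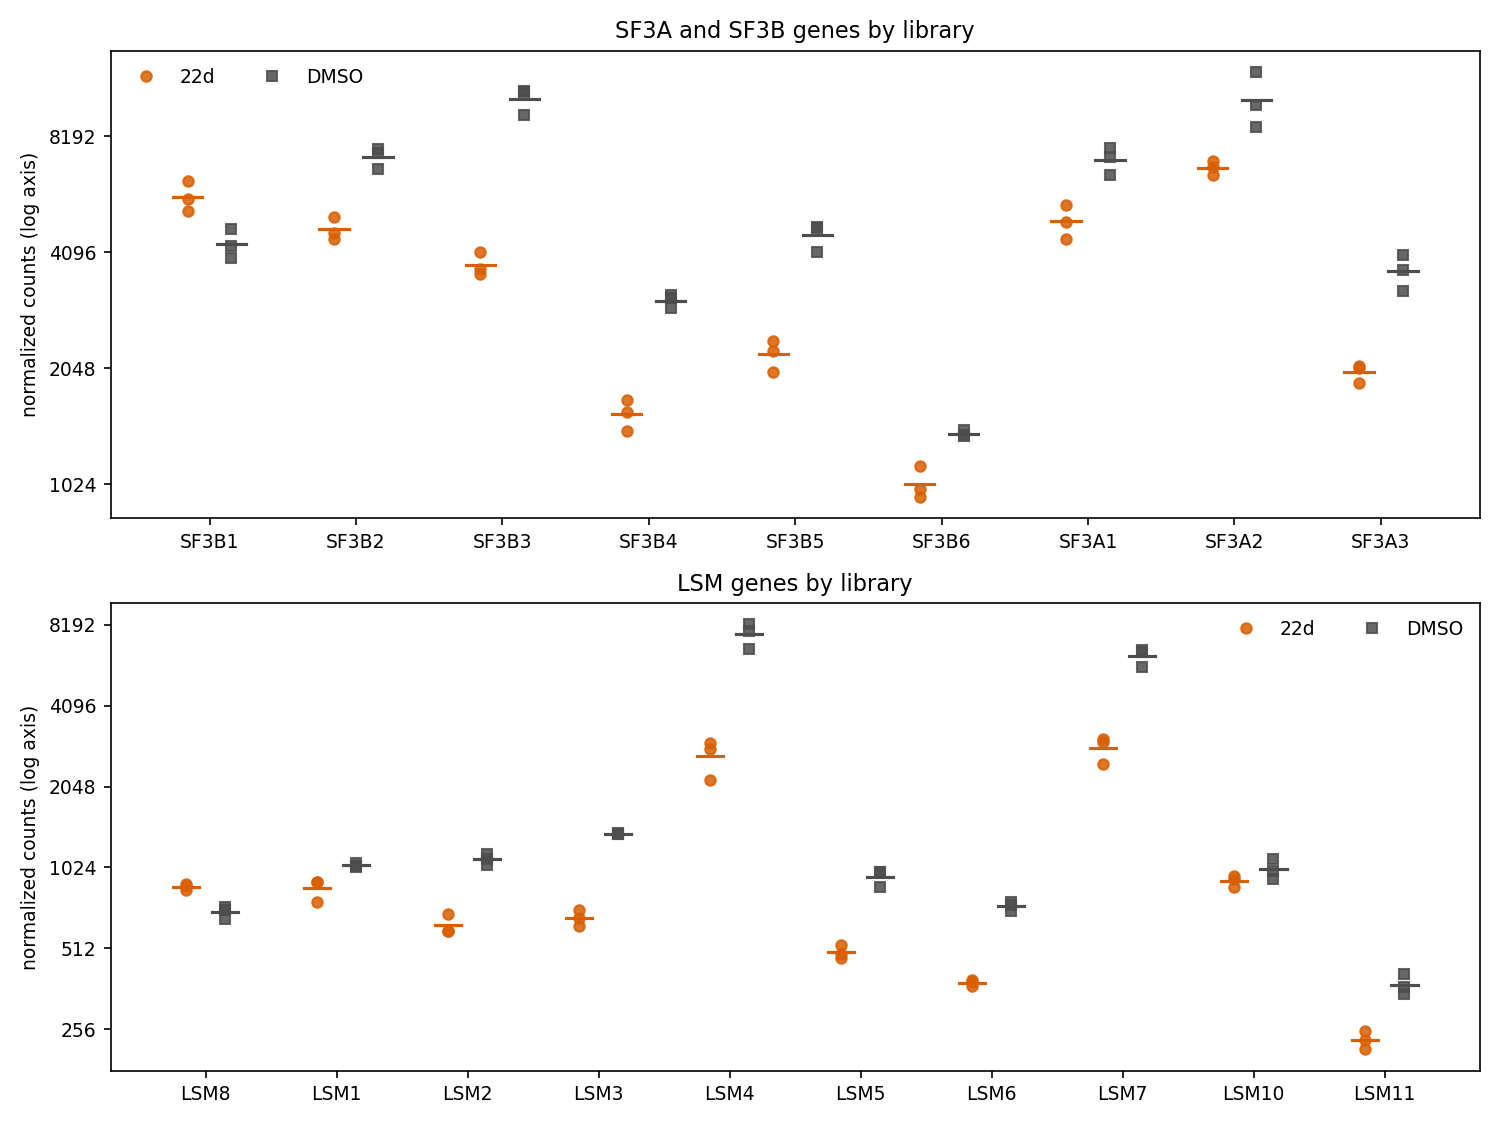
Normalized counts per library (log axis) of the splicing factor 3 genes and of LSM1 to LSM8, LSM10 and LSM11. LSM12, LSM14A and LSM14B are not drawn. The 22d libraries are orange circles and the DMSO libraries grey squares to their right, with a short line at each mean. Among the genes drawn, SF3B1 and LSM8 have their 22d libraries above their DMSO libraries, while SF3B3 and LSM4 show the widest gaps in the other direction.

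The LSM proteins form 2 rings that share the subunits LSM2 to LSM7. With LSM8 the ring sits in the nucleus on the end of U6 small nuclear RNA, and with LSM1 it works in the cytoplasm in the decay of mRNA. All 6 shared subunits were lower with 22d, with a median log2 fold change of -0.996. LSM4 had 2174, 2973 and 2826 normalized counts with 22d, against 7747, 8226 and 6674 with DMSO, and the groups were wide apart (log2 fold change -1.51, limma adjusted p = 1.0e-06). LSM7 had 2490, 3089 and 3001 normalized counts with 22d, against 6494, 6581 and 5723 with DMSO, a log2 fold change of -1.13. LSM3 and LSM2 had tight libraries. LSM3 had 661, 708 and 617 normalized counts with 22d, against 1363, 1359 and 1379 with DMSO. LSM2 had 688, 594 and 594 with 22d, against 1144, 1044 and 1101 with DMSO. Their log2 fold changes were -1.05 and -0.81, and LSM5 and LSM6 stood at -0.93 and -0.95.

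LSM8 and LSM1 are the subunits that tell the rings apart, and neither was tested against the shared ones. LSM8 had 885, 843 and 871 normalized counts with 22d, against 658, 708 and 726 with DMSO. Each 22d library lay above each DMSO library, and LSM8 was called higher (log2 fold change 0.31, SE 0.11, limma adjusted p = 0.025). It was no longer called without 22d replicate 2 (limma adjusted p = 0.056), 22d replicate 3 (limma adjusted p = 0.072) or DMSO replicate 1 (limma adjusted p = 0.11). LSM1 had 902, 905 and 764 normalized counts with 22d, against 1059, 1027 and 1038 with DMSO. It was called lower at a log2 fold change of -0.28 (limma adjusted p = 0.045), and it was not called by edgeR or DESeq2, under library totals, or without 22d replicate 2, 22d replicate 3 or any single DMSO replicate. LSM1 was 1.02, 1.07 and 0.877 times as abundant as LSM8 in normalized counts with 22d and 1.61, 1.45 and 1.43 times with DMSO, so the groups did not overlap (difference of the log2 ratio -0.60 ± 0.10 SE, exact permutation p = 0.1).

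The remaining LSM genes have other tasks. LSM11, which with LSM10 takes the place of a pair of Sm proteins in the U7 particle that trims histone mRNA, had 234, 251 and 215 normalized counts with 22d, against 410, 344 and 367 with DMSO. It was lower in every library (log2 fold change -0.68, limma adjusted p = 0.0010), whereas LSM10, at -0.14, did not pass (limma adjusted p = 0.30). LSM14A, which binds translationally silent mRNA, had 4432, 3853 and 3835 normalized counts with 22d, against 3755, 3678 and 3659 with DMSO. Its groups stood apart by little and the test was not passed at a log2 fold change of 0.12 (limma adjusted p = 0.30), but it was called higher when libraries were scaled by their totals (0.35, limma adjusted p = 0.0087) and under quantile normalization (0.43, limma adjusted p = 0.0030). LSM14B was lower at -0.35, a call lost under library totals and without 22d replicate 2, 22d replicate 3 or DMSO replicate 1. LSM12 stood at -0.58.

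Of the 11 SR genes tested, 9 were lower with 22d, none was higher by limma or DESeq2 and 2 did not pass. At an unadjusted p under 0.05 limma gave 1 higher, SRSF11, which edgeR also called. SRSF7, an SR protein with a zinc knuckle, had 1565, 2141 and 1812 normalized counts with 22d, against 5839, 5301 and 4933 with DMSO. This was the largest fall of the class, at -1.55 on the log2 scale with an SE of 0.12 (limma adjusted p = 5.6e-07). SRSF2, which is recurrently mutated in myeloid neoplasms, had 1821, 2516 and 2304 normalized counts with 22d, against 5618, 4739 and 5244 with DMSO. All 22d libraries lay below all DMSO libraries, at a log2 fold change of -1.24 (limma adjusted p = 4.1e-06). In 11 members over 10% of the exon bases are shared with other annotated genes, so how reads were split there is uncertain. The highest shares were 60.7% for SRSF1, 46.2% for SRSF9, 44.1% for HNRNPUL2, 38.5% for LSM1 and 36.7% for SRSF2.

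SRSF1, the founding member of the family, had 4166, 4942 and 4790 normalized counts with 22d, against 10628, 10019 and 9777 with DMSO. SRSF3, a small SR protein, had 6098, 6000 and 5613 with 22d, against 11730, 10536 and 10313 with DMSO. Neither gene had an overlap between groups, and the log2 fold changes were -1.13 for SRSF1 and -0.88 for SRSF3. SRSF10, SRSF9 and SRSF4 had log2 fold changes of -0.98, -0.86 and -0.58. SRSF8 and SRSF6 were lower at -0.36 and -0.33, and both calls were lost under library totals; that of SRSF8 was also lost without 22d replicate 1 or DMSO replicate 3, and that of SRSF6 without 22d replicate 3 or DMSO replicate 1.

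SRSF11 and SRSF5 stood outside this. SRSF11 had 2893, 3172 and 2888 normalized counts with 22d, against 2398, 2375 and 2810 with DMSO, so that every 22d library was above every DMSO library, by little in the closest pair. At a log2 fold change of 0.24 it missed the threshold (limma adjusted p = 0.066), but it was called higher by edgeR (adjusted p = 0.049), under library totals (limma adjusted p = 0.0032), under quantile normalization (limma adjusted p = 0.0021) and without DMSO replicate 3 (limma adjusted p = 0.027). SRSF5 had 2995, 3692 and 3356 normalized counts with 22d, against 3166, 3325 and 3621 with DMSO, with the groups mixed (log2 fold change -0.01, limma adjusted p = 0.93). SRSF12 was below the filter, with 0.978, 0.913 and 2.52 normalized counts with 22d, against 5.69, 2.07 and 0 with DMSO.

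The hnRNP class held the most abundant members. Of 20 genes tested, 17 were lower with 22d and 3 did not pass, with a class median of -0.83. None was higher by limma, at an unadjusted p under 0.05 by limma, by edgeR or by DESeq2. HNRNPAB, a relative of HNRNPD that binds RNA, had 3045, 4653 and 4329 normalized counts with 22d, against 12792, 13039 and 11721 with DMSO. The highest 22d library was far below the lowest DMSO library, and the change of -1.66 on the log2 scale with an SE of 0.14 (limma adjusted p = 9.2e-07) was the largest fall of any member. HNRNPR had 1520, 2224 and 1937 normalized counts with 22d, against 4454, 4330 and 4740 with DMSO, at a log2 fold change of -1.27. In both genes 22d replicate 1 was the lowest library, as it was in 31 of the 54 members called lower. The matching share over all genes called lower was not computed. On the first principal component of all genes tested, 22d replicate 1 also lay furthest from the DMSO libraries, so the count is not a result about the members. Without 22d replicate 1, 53 members were lower and 2 higher, and the median over tested members was -0.83.

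HNRNPA2B1, which binds and sorts RNA as well as repressing exons, had 6814, 9007 and 7941 normalized counts with 22d, against 18294, 19003 and 18891 with DMSO. HNRNPA3 lay at almost the same change, with log2 fold changes of -1.25 for both genes. HNRNPA1, the best studied repressor of exons in the family, had 545, 606 and 505 normalized counts with 22d, against 659, 660 and 679 with DMSO. Its 22d libraries were all below its DMSO libraries, yet at a log2 fold change of -0.27 it missed the threshold (limma adjusted p = 0.064). The GENCODE v29 annotation lists 74 pseudogenes of HNRNPA1, so how reads were split among the copies, and with it the level of HNRNPA1, is uncertain. The same limit applies to SNRPG with 20, SNRPC with 18 and HNRNPA3 with 16. The log2 ratio of HNRNPA1 to HNRNPA2B1 differed by 0.98 ± 0.10 (SE) between 22d and DMSO, without overlap (exact permutation p = 0.1).

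HNRNPK, a poly(C)-binding protein whose gene dosage matters in myeloid leukaemia, had 12500, 11650 and 11402 normalized counts with 22d, against 21321, 18160 and 19370 with DMSO. HNRNPU, which ties RNA to the nuclear scaffold, had 12454, 15880 and 13774 with 22d, against 22833, 22812 and 24617 with DMSO. Neither gene had an overlap between groups, and the log2 fold changes were -0.73 and -0.74 (limma adjusted p = 6.3e-05 and 9.4e-05). The antisense row HNRNPU-AS1, which was left out of the members, had 1624, 1638 and 1378 normalized counts with 22d, against 957, 900 and 1354 with DMSO. The strand setting of the counting was not given in the sources used here, so how reads of HNRNPU and HNRNPU-AS1 were assigned is uncertain. In GENCODE v29 the gene listed as sharing exon bases with HNRNPU, 15.6% of them, was COX20.

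Among the other hnRNP genes the log2 fold changes were -1.18 for HNRNPA0, -1.11 for HNRNPD, -1.04 for HNRNPL, -1.0 for HNRNPM, -0.98 for HNRNPF and -0.87 for HNRNPDL. HNRNPUL1, HNRNPH3, HNRNPH1 and HNRNPUL2 followed at -0.80, -0.60, -0.55 and -0.47. HNRNPC, which binds uridine tracts, changed least of those called, at -0.36. Under library totals HNRNPC and HNRNPUL2 lost their calls. HNRNPLL, an activation-linked paralog of HNRNPL, had a log2 fold change of -0.04 (limma adjusted p = 0.79) and HNRNPA1L2 of -0.11 (limma adjusted p = 0.58). HNRNPH2 and the 4 HNRNPCL genes were listed at 0 in all 6 libraries. HNRNPH2 shares 16.3% of its exon bases with other annotated genes, so what its 0 stands for is uncertain.

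Taken as a share of all reads in genes, the 71 members made up 1.11%, 1.18% and 1.14% in the 22d libraries, against 1.77%, 1.75% and 1.79% in the DMSO libraries. The share was lower in every 22d library, by 35.6% of the DMSO mean, and the exact two-sided permutation p was 0.1, the smallest possible. The hnRNP genes averaged 0.620 ± 0.021% in 22d libraries and 0.987 ± 0.025% in DMSO libraries (SD, n = 3 each; exact permutation p = 0.1). The snRNP core averaged 0.112 ± 0.009% in 22d libraries and 0.210 ± 0.006% in DMSO libraries (SD, n = 3 each; exact permutation p = 0.1), the largest relative difference of a class at 46.6%. The shares of the SR, LSM and splicing factor 3 genes were lower by 31.7%, 29.3% and 26.1%. In each of the 5 classes the groups did not overlap.

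**Figure D3:**
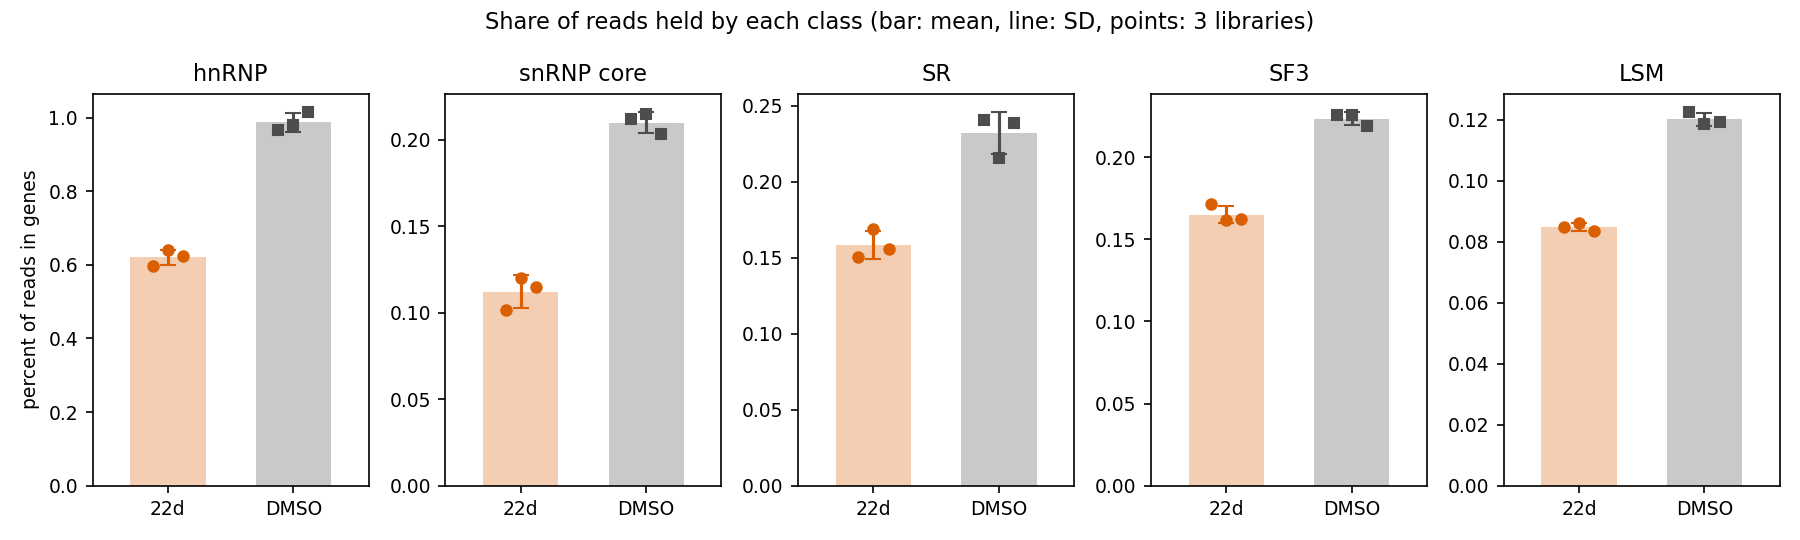
Percent of reads in genes taken by each class in each library, 22d on the left and DMSO on the right, with bars for the mean, lines for the SD and points for the 3 libraries. In all 5 classes each 22d library lies below each DMSO library.

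Pairs of related members were compared by the difference of their log2 ratio between groups, which 1 scaling factor per library cannot move. Of 17 pairs, 13 had groups that did not overlap, each with an exact permutation p of 0.1 (0.13 after Benjamini-Hochberg adjustment over the pairs), so that none could pass 0.05. The share of other gene pairs with groups apart was not computed, and these pairs were chosen with earlier results of these data known. Among the 13297 single genes tested, 4423 had groups apart and lower with 22d, and 4271 apart and higher. The count of 13 is thus not a result about related genes as such. The log2 ratio of HNRNPL to HNRNPLL differed by -0.998 ± 0.12 and that of SRSF2 to SRSF8 by -0.88 ± 0.13 (SE; 22d minus DMSO). For LSM14A to LSM14B the difference was 0.48 ± 0.06, and for SRSF3 to SRSF7 it was 0.67. The 4 pairs whose groups overlapped were HNRNPA0 with HNRNPA3, HNRNPD with HNRNPDL, HNRNPU with HNRNPUL1, and SRSF4 with SRSF6.

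Scaling by library totals instead of the authors' size factors moved the median of all genes tested by 0.22 on the log2 scale. Under it 47 members were lower and 4 higher, against 20.8% and 39.7% of all genes tested, the members' median was -0.63, and of all calls 65.6% were higher in place of 49.0%. Quantile normalization ended the calls of HNRNPC, HNRNPH1, SF3A1, SRSF6, LSM1 and LSM14B. By edgeR on the recovered reads 53 members were lower and 3 higher, while 28.3% of all genes tested were lower. Through all the alternatives run, 46 of the 56 called members kept their call, 45 of them lower and SF3B1 higher. The authors' deposited table called 55 members, and all 55 had the same direction as here.

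The splicing genes outside these families differed from list to list. Their counts stand beside 29.6% lower and 28.5% higher among all genes tested. Of the 16 proteins of the U4/U6.U5 tri-snRNP, 15 were lower with 22d and none was higher by limma, edgeR or DESeq2, nor at an unadjusted p under 0.05. SNRNP40 averaged 729 ± 40.8 normalized counts in the 22d libraries and 2005 ± 214 in the DMSO libraries (SD, n = 3 each). PPIH averaged 727 ± 44.4 in the 22d libraries and 1854 ± 27.6 in the DMSO libraries. PRPF8, the scaffold at the catalytic centre, had a log2 fold change of -0.60. Of the 11 tested genes of the exon junction complex and its partners, 9 were lower and none was higher by the same tests, with ALYREF, an adaptor for mRNA export, at -1.90 and DDX39A at -1.33.

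Among 23 other genes of the U1 and U2 particles and of branch-site recognition, 13 were lower (56.5%) and 3 higher (13.0%). U2AF2 and U2AF1, the subunits that read the end of the intron, had log2 fold changes of -1.43 and -0.99, and PUF60 had -1.31. LUC7L3 and UHMK1, a kinase of the branch-site protein SF1, were higher at 0.86 and 0.63. Of the 28 tested genes of snRNP assembly, 18 were lower (64.3%) and 2 were higher (7.14%). GEMIN4, of the SMN complex, stood at -1.90, TOE1, which trims small nuclear RNA, at -1.80, and PRMT5, which methylates Sm proteins, at -1.22, while USP15 and GEMIN7 were higher at 0.47 and 0.29.

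Other lists were mixed. The kinases, importers and SR-like partners of SR proteins had 10 of 27 genes higher (37.0%) and 8 lower (29.6%). Among all genes tested 28.5% were higher and 29.6% lower, so the count of lower genes was at the general share. In this list PNISR stood at 1.27 and CLK4, a kinase of SR proteins, at 1.01, but TRA2B at -1.53 and SRPK1, another such kinase, at -1.01. The minor spliceosome, which removes a rare class of introns, had 4 of 11 tested genes higher (36.4%) and 2 lower (18.2%). RNPC3 averaged 549 ± 51.4 normalized counts in the 22d libraries and 209 ± 16.8 in the DMSO libraries (SD, n = 3 each). SNRNP25 averaged 913 ± 120 in the 22d libraries and 3492 ± 344 in the DMSO libraries, and ZRSR2 and SNRNP35 had log2 fold changes of 0.63 and -0.77.

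Of 50 genes of the PRP19 complex and of the activation and catalytic steps, 20 were lower (40%) and 7 higher (14%). They were led by PPIL1 at -1.45 and PRPF19 at -1.32 and by SYF2 at 1.55 and SLU7 at 0.76. A list of 13 genes set beside the LSM genes, mainly of mRNA decay and histone mRNA processing, had 6 lower (46.2%) and 3 higher (23.1%). NAA38 stood at -1.85, although it is a subunit of an N-terminal acetyltransferase and not of mRNA decay. SLBP, the binder of the histone stem-loop in histone mRNA processing, stood at -1.36. XRN1, the exonuclease of mRNA decay, stood at 1.13 and DCP1B at 0.65. Of 40 other RNA-binding regulators tested, 21 were lower (52.5%) and 4 higher (10%). MSI2 had a log2 fold change of 1.02 and PTBP3 of 0.52. RBFOX2 stood at -1.90 and was low, averaging 21.4 ± 14.1 normalized counts in the 22d libraries and 76.4 ± 30.8 in the DMSO libraries (SD, n = 3 each). Over all 219 tested splicing genes outside the member families, 112 were lower (51.1%) and 33 higher (15.1%), with a median log2 fold change of -0.31. Among all genes tested, 29.6% were lower and 28.5% higher.

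**Figure D4:**
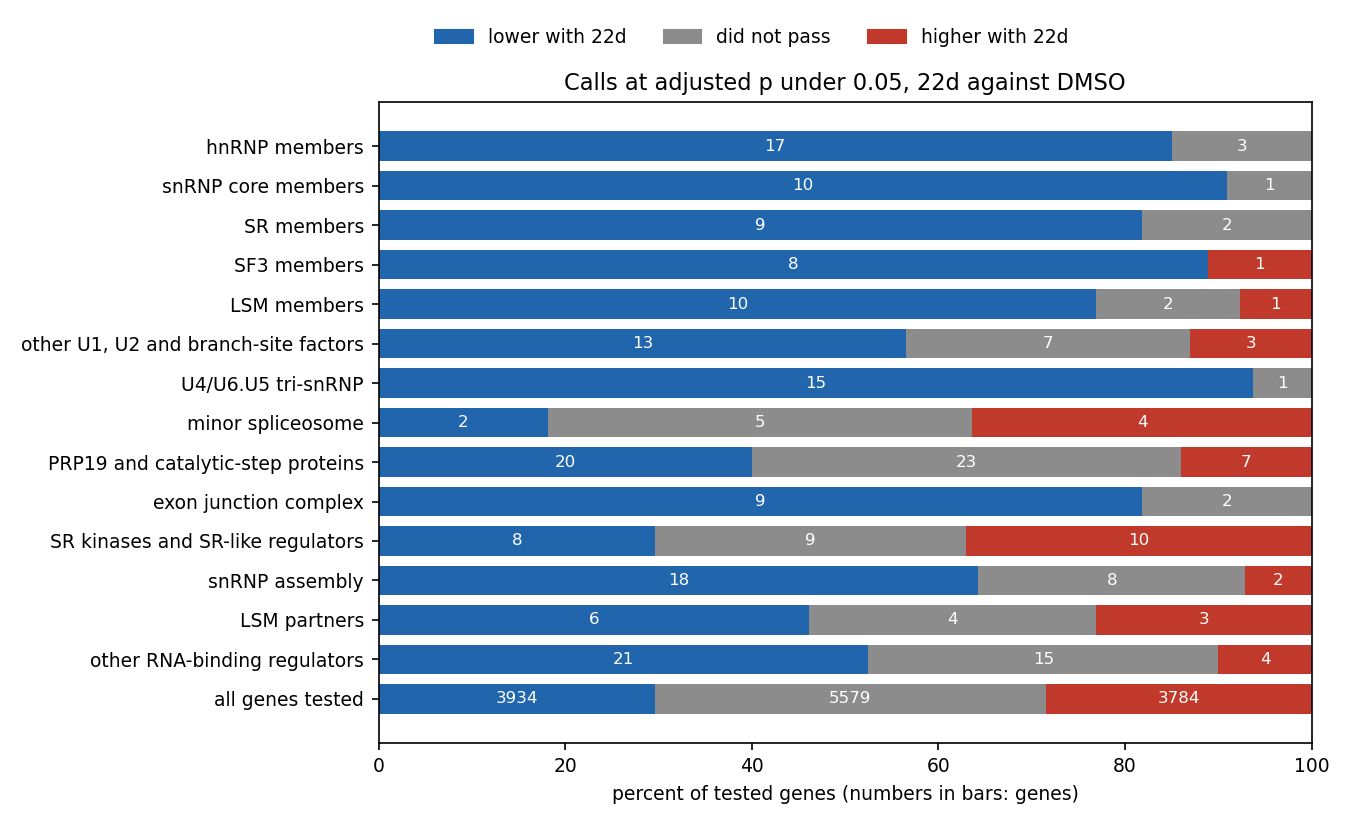
Percent of tested genes called lower and higher with 22d in each member class, in each other splicing list and in all genes tested. The member classes lie between 76.9% and 90.9% lower, against 29.6% for all genes tested, and the list of SR partners and the minor spliceosome have more genes higher than lower.

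The promoter windows of the members were searched on both strands for 8 motifs, without overlap between motifs being resolved. The E-box CACGTG was in 11.4% of the 79 windows of the tested members and in 9.37% of the 14015 windows of all genes tested. Counted by gene, it was in 12.3% of the 57 tested members with a window and in 12.6% of all genes tested with one. In HNRNPM it began at base -42 from the start, in HNRNPD at -27 and in SF3B1 at -108, or at -43 in another window of SF3B1. The letters CTCGCGAG of ZBTB33 were in 6 of the 79 windows, or 7.59%, against 1.78% of the windows of all genes tested, and lay at -56 in HNRNPK and at -51 in SRSF10. The ETS motif CCGGAAG was in 29.1% of member windows against 17.1%, the NRF1 motif GCGCATGCG in 5.06% against 3.13%, AAGATGGCG of YY1 in 3.80% against 3.45%, and CCAAT in 39.2% against 34.2%. TTTCGCGC of the E2F family and TGACGTCA of the CREB family were in no member window and in 0.742% and 2.75% of the windows of all genes tested. Windows of one gene can overlap, so a single occurrence can be counted in several windows, and a match is a run of letters only. The motifs were chosen with earlier results known and shortened after the windows had been read. The differences in share are therefore a description, and none was tested.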

How the data were processed

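RNA of MV4-11 cells was sequenced in 6 libraries, 3 per group. Per the labels' protocols, 1 microgram of total RNA went into each NEBNext Ultra library. The tools in the submitters' processing notes are FastQC for read quality, cutadapt, STAR, HTSeq and DESeq2, and the build is hg38; the sources used here give no versions, annotation or strand setting. Per the file headers, the authors deposited a normalized signal (count divided by a size factor) per library, their log2 fold change, test score and p-value.

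Multiplied by one factor per library, 100% of the deposited normalized counts gave whole reads (tolerance 0.001 read), which were used as recovered reads of 19995430 to 23749257 per library. The test was limma-trend (limma 3.58.1, R 4.3.3) on log2(value + 1) for the 13297 genes averaging 10 normalized counts or more, Benjamini-Hochberg adjusted at 0.05; fold changes on this scale understate those of low genes. It was checked on simulated data in which far fewer genes changed than were called here. That check does not bear on the choice of scaling. Alternatives were edgeR 4.0.16 and DESeq2 1.42.0 on recovered reads, library totals, quantile normalization, pseudocounts of 0.5 and 5, no filter or a mean of at least 50, a replicate block, and leaving out each library. Ratios of pairs and class shares used exact two-sided permutation tests (scipy 1.17.1).

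The members, lists, pairs and motifs were chosen with earlier results of these data known, and the motifs were shortened after the windows had been read. Named genes were fixed by role, plus the 3 called members per class with the largest rise and fall and 2 per other list; other members are given so that each is accounted for. One gene that this rule names is not reported here. Sequences and coordinates are from RefSeq GRCh38.p14. Shared exon bases and pseudogene numbers are from GENCODE v29.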

Additional observations from a re-analysis of the deposited data

How the results depend on the processing

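Across the alternatives run, between 47 and 54 members were called lower, and no called member changed direction. The count of members called higher, 2 in the main test, was 4 under library totals, 4 under quantile normalization and 1 with the replicate block, and lay between 1 and 3 when single libraries were left out. For the SR genes it was 0 in the main test, 1 by edgeR, 1 under library totals and 1 under quantile normalization, and between 0 and 1 with a library left out. For the LSM genes it was 1 in the main test, 2 under library totals, 2 under quantile normalization and 0 with the replicate block, and between 0 and 1 with a library left out. The log2 fold changes of 5 members that did not pass the test changed sign: LSM10 to 0.080 under library totals; SRSF5 to 0.019 by edgeR, 0.21 under library totals, 0.27 under quantile normalization, 0.065 without 22d replicate 1 and 0.04 without DMSO replicate 3 (leave-one-out range -0.086 to 0.065); HNRNPA1L2 to 0.11 under library totals and 0.0025 without DMSO replicate 3 (range -0.18 to 0.0025); HNRNPLL to 0.18 under library totals, 0.087 under quantile normalization, 0.0062 without 22d replicate 3 and 0.016 without DMSO replicate 3 (range -0.12 to 0.016); SNRPB2 to 0.13 under library totals and 0.040 under quantile normalization. The cause was not tested. Libraries of the same replicate number had correlations of deviations of -0.03, -0.02 and -0.10. Those of unlike number ran from -0.11 to 0.17. No pairing by replicate number was thus seen, but 3 libraries per group cannot decide whether there was any. The block left 7419 genes called against 7718 without it, and LSM8 (limma adjusted p = 0.068) and LSM1 (limma adjusted p = 0.092) lost their calls. The share of reads with single libraries left out was added after seeing the data. Every tested member had at least 159 reads in each library; of the 7 members that were not tested, 6 were listed at 0 in all libraries.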
